A study of Homo sapiens with 6 samples.

Results

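The enzymes that make serine from glucose and those that move the 1-carbon units of serine onto folate are encoded by 10 genes, PHGDH, PSAT1, PSPH, SHMT1, SHMT2, MTHFD1, MTHFD1L, MTHFD2, MTHFD2L and ALDH1L2. They were taken by gene symbol as the enzymes of these steps, with earlier results of these data known, and all 10 were among the 19845 symbols of the count table. The 6 libraries came from cultures of Molm13-Cas9, a human acute myeloid leukemia line with a rearranged MLL gene (MLL-r leukemia in the labels) that expresses the Cas9 nuclease. In 3 cultures (sgCtrl) the lentiviral ipUSEPR vector carried a control guide against a non-essential sequence, and in 3 (sgCOX4I1) a guide against COX4I1, a nuclear-encoded subunit of Complex IV of the respiratory chain. All 6 were selected with puromycin, each culture of a group carried a different guide, and the cultures were transduced populations rather than clones.

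Serine is made from the glycolytic intermediate 3-phosphoglycerate by PHGDH, PSAT1 and PSPH in turn. SHMT enzymes then split serine into glycine and a 1-carbon unit on tetrahydrofolate, SHMT1 in the cytosol and SHMT2 in mitochondria. MTHFD enzymes oxidize that unit to formate or use formate in the reverse direction, and the formate exported from mitochondria feeds purine and thymidylate synthesis in the cytosol, on which dividing leukemia cells depend. Oxidation in mitochondria needs NAD+ or NADP+, the oxidized cofactors whose supply is tied to the respiratory chain.

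The counts per library totalled from 17241014 to 30861943. COX4I1 was at 513, 502 and 463 CPM in sgCtrl #1, #2 and #3 and at 132, 378 and 133 CPM in sgCOX4I1 #1, #2 and #3, where CPM is the count scaled to a common library size by TMM factors (log2 fold change -1.21, SE 0.29, adjusted p = 0.0512, edgeR). The sgCOX4I1 #2 library thus stood apart, with COX4I1 mRNA nearer to the control level. The mRNA does not show how much COX4I1 protein was left. The paper blotted the protein for 3 sgCOX4I1 guides and reported it reduced. Its text does not link these guides to the library numbers. Results are given below with and without sgCOX4I1 #2 where a call depends on it. All 12 myeloid markers reached 1 CPM, and their summed level ran from 3410 to 4220 CPM in sgCtrl and from 3910 to 5090 CPM in sgCOX4I1. Within that list MPO, a granule enzyme of immature myeloid cells, fell from 227 to 109 CPM (adjusted p = 1.59e-05, edgeR with Benjamini-Hochberg adjustment). It was the only marker called. The monocyte gene LYZ was the most abundant of the list and weighed most in that sum. It averaged 1590 CPM in sgCtrl and 2720 CPM in sgCOX4I1 (adjusted p = 0.0534, edgeR), and its groups overlapped. CSF1R, ITGAM and CD14 of the same list had log2 fold changes of 0.01, -0.16 and 0.46 (adjusted p = 0.984, 0.572 and 0.508, edgeR), also with overlap. FLT3 was at -0.23 and CD33 at 0.15 (adjusted p = 0.19 and 0.377, edgeR), both without overlap. HOXA9 was at -0.21 (adjusted p = 0.236, edgeR) with overlap. PTPRC, SPI1, CEBPA and MEIS1 were at -0.03, -0.06, -0.09 and -0.12 (adjusted p = 0.898, 0.806, 0.721 and 0.634, edgeR), with overlap. Of the markers of other cells, 1 of 5 lymphoid genes reached 1 CPM (sum 54.9 to 56.4 CPM in sgCtrl, 60.8 to 65.5 in sgCOX4I1), 1 of 5 erythroid and megakaryocyte genes did (0.815 to 1.74 and 0.891 to 1.34 CPM, with HBB and PF4 among those at 0), and 2 of 6 epithelial and fibroblast genes did (12 to 17.7 and 8.78 to 13.5 CPM, with EPCAM and COL1A2 at 0). The part of these myeloid differences in the results below was not tested, and in bulk RNA a change in the share of a cell state and a change in RNA per cell cannot be told apart.

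The sequence just before the RefSeq start of PSAT1 and MTHFD2 is shown because these were the members called. For MTHFD2 this start lies inside the annotated gene span given below. Both lie on the plus strand of GRCh38, the PSAT1 stretch at chr9:78296875-78297124 and the MTHFD2 stretch at chr2:74198365-74198609. They lie outside the annotated exons of their own gene, and exons of other genes were not checked. Capitals mark CCAAT, the motif of the factor NF-Y.
PSAT1: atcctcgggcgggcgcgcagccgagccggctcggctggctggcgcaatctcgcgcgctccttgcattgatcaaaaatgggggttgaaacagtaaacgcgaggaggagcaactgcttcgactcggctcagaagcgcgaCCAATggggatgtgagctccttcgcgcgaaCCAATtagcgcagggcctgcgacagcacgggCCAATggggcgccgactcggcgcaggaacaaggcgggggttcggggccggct
MTHFD2: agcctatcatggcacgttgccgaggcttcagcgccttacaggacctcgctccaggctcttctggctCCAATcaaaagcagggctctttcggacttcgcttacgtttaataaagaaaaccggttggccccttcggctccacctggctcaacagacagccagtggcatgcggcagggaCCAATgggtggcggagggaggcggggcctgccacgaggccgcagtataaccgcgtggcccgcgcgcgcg
PSAT1 had 3 copies of CCAAT and MTHFD2 had 2. SHMT1, which was not called, had 2 as well, 1 of them as ATTGG on the other strand. Copies were not compared with those in other promoters. A shorter stretch is shown for MTHFD1L at chr6:150866346-150866375 with TGATGCAA in capitals, and for MTHFD1 at chr14:64388322-64388351 with CACGTG in capitals. Both 30-base stretches lie in annotated exons of their own gene on the plus strand.
MTHFD1L: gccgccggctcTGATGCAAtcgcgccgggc
MTHFD1: ctggccagtccctaagCACGTGggttgggt
The RefSeq promoter table (GRCh38.p14) held 7 of the 10 members and not PSPH, SHMT2 and ALDH1L2. In the 250 bases before each start, of which MTHFD1L had 4, MTHFD2L 2 and the other 5 members 1 each, 3 motifs were searched on both strands. TGATGNAA, the core of the element read by ATF4 with C/EBP factors, was present in 3.14% of 35116 promoters and, among the 7 members, at 2 of the 4 starts of MTHFD1L. CACGTG, an E-box read by MYC, was present in 6.34% of promoters and in MTHFD1 and at 2 of the 4 starts of MTHFD1L. CCAAT was present in 32.0% of promoters and at the starts of PHGDH, PSAT1, SHMT1, MTHFD1 and MTHFD2, at 3 of the 4 of MTHFD1L and at neither of MTHFD2L. These shares are per promoter, and overlapping windows of MTHFD1L hold the same matches. The motifs overlapped no other motif of the search, and each match describes letters in this window only.

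PSAT1 and MTHFD2 mRNA rose after COX4I1 targeting. They were the 2 of 10 members called at an adjusted p under 0.05, against 2.08% of all 11861 genes tested called in either direction and 1.06% called higher. All 10 members passed the filter on low counts. None reached the 2-fold change that the methods also asked for, and 0.202% of all genes passed both that and the adjusted p. An unadjusted p under 0.05 was found for 6 members, against 17.3% of all genes, and DESeq2 called 3 (PSAT1, MTHFD2 and ALDH1L2), against 4% of the genes to which it gave an adjusted p. The log2 fold change was above 0 for 9 members and below 0 for SHMT1, with a median of 0.19 over the members and -0.0023 over all genes tested. All 3 sgCOX4I1 libraries lay above all 3 sgCtrl libraries for 5 members, PSAT1, MTHFD1, MTHFD1L, MTHFD2 and ALDH1L2, against 11.2% of all genes. The reverse order was found for none of the members and for 10.4% of all genes. Without PSAT1 and MTHFD2, the other 8 members had a median log2 fold change of 0.15 and none was called by edgeR, 4 with an unadjusted p under 0.05.

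**Figure D1:**
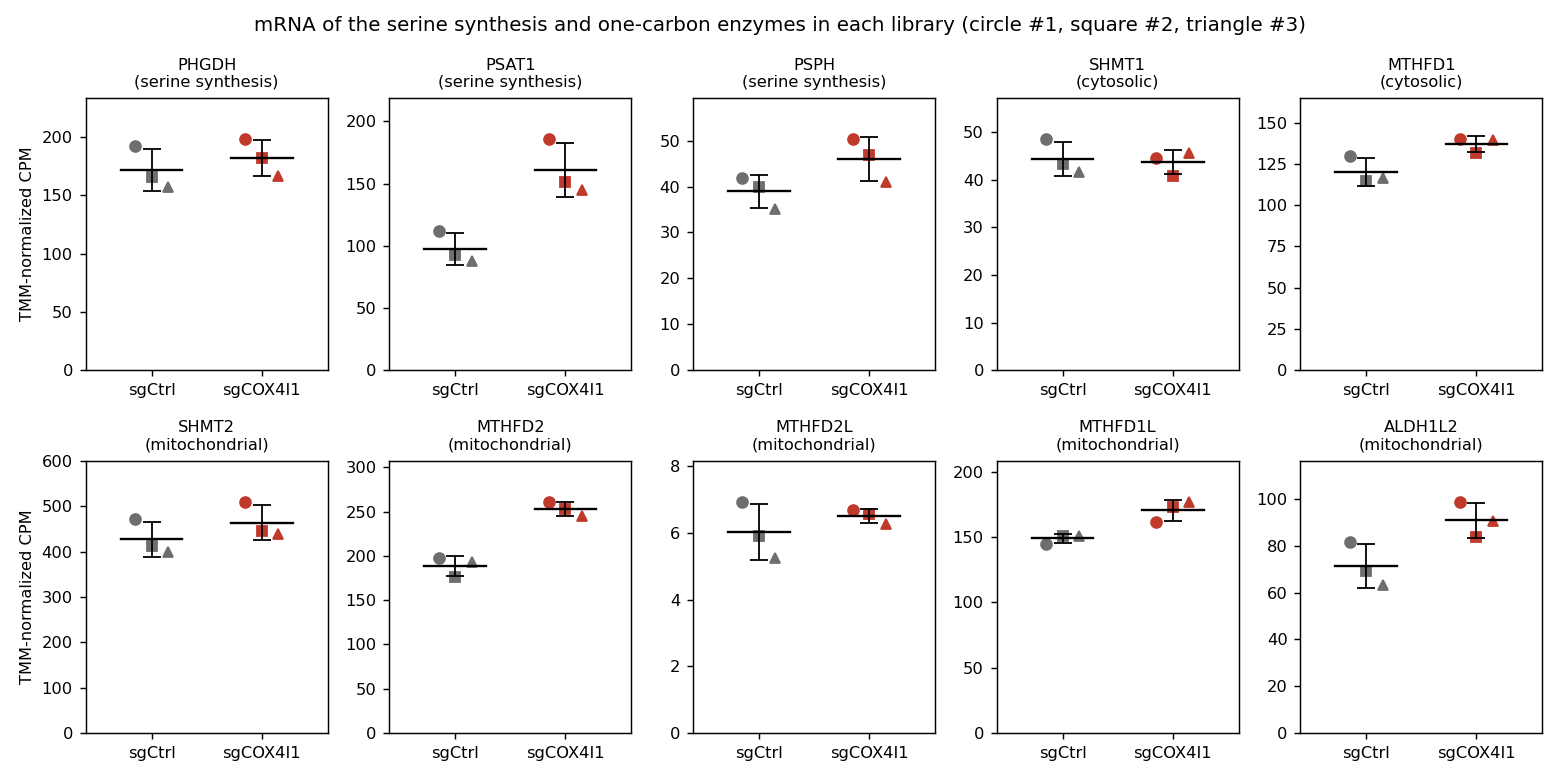
Level of each of the 10 members (TMM-scaled CPM, linear axes from 0 that differ between panels) in the 3 sgCtrl and the 3 sgCOX4I1 libraries, with 1 point a library, a line at each group mean and whiskers of 1 SD. The groups separate for PSAT1, MTHFD1, MTHFD1L, MTHFD2 and ALDH1L2 and overlap for the other 5.

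In the serine synthesis branch, 1 of 3 enzymes was called, and the median log2 fold change was 0.24. PHGDH, the dehydrogenase that commits 3-phosphoglycerate to serine (chromosome 1, 119648411 to 119744218, plus strand), was at 192, 166 and 157 CPM in sgCtrl #1, #2 and #3 and at 198, 182 and 167 CPM in sgCOX4I1 #1, #2 and #3. These ranges overlapped, and the means were 172 ± 18 and 182 ± 15.5 CPM (SD, n = 3 libraries a group). That is a log2 fold change of 0.09 (95% interval -0.11 to 0.28, adjusted p = 0.678, edgeR).

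PSAT1, the aminotransferase of the second step (chromosome 9, 78297125 to 78330093, plus strand), was at 112, 93.0 and 87.7 CPM in sgCtrl and at 185, 151 and 145 CPM in sgCOX4I1. The lowest sgCOX4I1 library was above the highest sgCtrl library. The means were 97.4 ± 12.5 and 161 ± 21.6 CPM, a 1.65-fold rise (log2 fold change 0.72, SE 0.11, 95% interval 0.49 to 0.95, adjusted p = 0.00387, edgeR), and PSAT1 ranked 31 of 11861 genes by p. The call was lost without sgCtrl #2 (0.69, adjusted p = 0.0925) and held without sgCOX4I1 #2 (0.76, adjusted p = 0.0273). Over all alternatives the log2 fold change stayed between 0.61 and 0.83 and the adjusted p between 8.4e-08 and 0.0925. The annotation names 4 PSAT1 pseudogenes, so reads that match both could have been split or dropped in counting.

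PSPH, the phosphatase that releases serine (chromosome 7, 56011051 to 56051604, minus strand), was at 42.0, 39.9 and 35 CPM in sgCtrl and at 50.2, 47.0 and 40.9 CPM in sgCOX4I1. The sgCOX4I1 #3 library lay below sgCtrl #1, so the groups overlapped, with a log2 fold change of 0.24 (SE 0.10, 95% interval 0.02 to 0.45, adjusted p = 0.23, edgeR). PSPH has 1 named pseudogene.

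**Figure D2:**
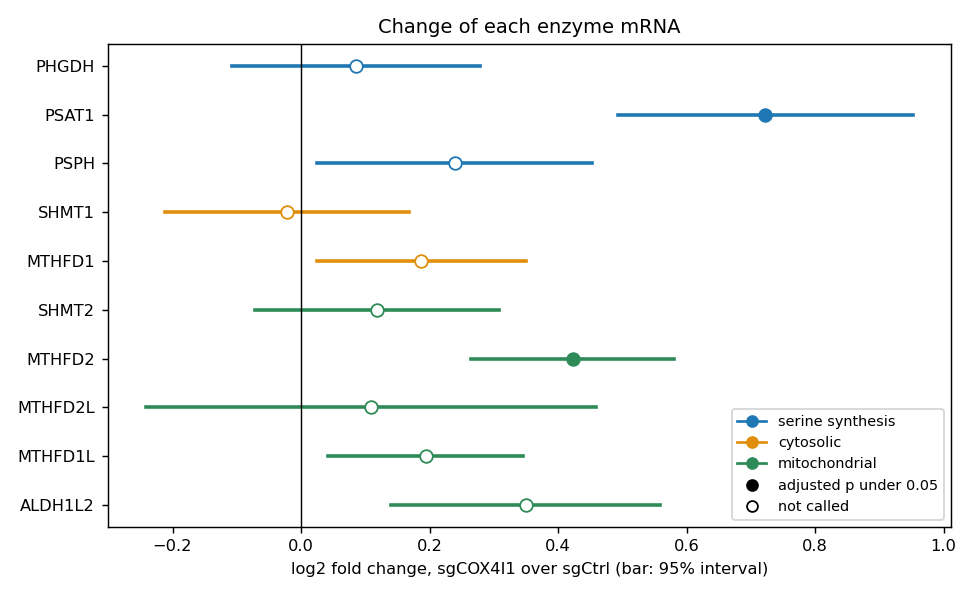
Log2 fold change of each member (sgCOX4I1 over sgCtrl, edgeR) with its 95% interval, colored by role, with filled points for called members and a vertical line at 0. PSAT1 (0.72) and MTHFD2 (0.42) passed an adjusted p of 0.05, and the interval of PSAT1 lies above that of every member except MTHFD2 and ALDH1L2.

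Neither cytosolic enzyme was called by edgeR or DESeq2, and MTHFD1 had an unadjusted p under 0.05. SHMT1 (chromosome 17, 18327860 to 18363563, minus strand), the cytosolic hydroxymethyltransferase, was at 48.4, 43.3 and 41.6 CPM in sgCtrl and at 44.5, 40.8 and 45.7 CPM in sgCOX4I1. The libraries were interleaved, with a log2 fold change of -0.02 (95% interval -0.21 to 0.17, adjusted p = 0.931, edgeR), and the sign turned to 0.04 without sgCtrl #1 and to 0.02 without sgCOX4I1 #2.

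MTHFD1 (chromosome 14, 64388031 to 64463457, plus strand), the cytosolic protein that interconverts the folate-bound 1-carbon forms with 3 activities, was at 130, 114 and 116 CPM in sgCtrl and at 140, 131 and 140 CPM in sgCOX4I1. The groups did not overlap, but the lowest sgCOX4I1 library exceeded the highest sgCtrl library by little. The log2 fold change was 0.19 (SE 0.08, 95% interval 0.02 to 0.35, adjusted p = 0.217, edgeR). In all, 11.1% of its exonic bases are also covered by exons of genes on the other strand, ZBTB25 among them, and the strand setting of the counting is not given in the sources used here.

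Of the 5 mitochondrial enzymes 1 was called, with a median log2 fold change of 0.19. SHMT2 (chromosome 12, 57229573 to 57234935, plus strand), which takes the 1-carbon unit from serine inside mitochondria, was at 471, 411 and 399 CPM in sgCtrl and at 509, 444 and 438 CPM in sgCOX4I1. The groups overlapped, and the log2 fold change was 0.12 (95% interval -0.07 to 0.31, adjusted p = 0.532, edgeR). Exons of genes on the other strand, NDUFA4L2 among them, cover 8.4% of its exonic bases.

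MTHFD2 (chromosome 2, 74186172 to 74217565, plus strand), the mitochondrial dehydrogenase and cyclohydrolase that is high in dividing cells and tumors, was at 197, 176 and 194 CPM in sgCtrl and at 261, 253 and 246 CPM in sgCOX4I1. The groups were well apart, at 189 ± 11.5 and 253 ± 7.57 CPM, a 1.34-fold rise with a log2 fold change of 0.42 (SE 0.07, 95% interval 0.26 to 0.58, adjusted p = 0.0119, edgeR; rank 54 by p). The call was lost without sgCtrl #2 (0.37, adjusted p = 0.121) and without sgCOX4I1 #2 (0.42, adjusted p = 0.0599), and over all alternatives the log2 fold change stayed between 0.37 and 0.45 with an adjusted p from 3.14e-05 to 0.121. MTHFD2 has 7 named pseudogenes, and exons on the other strand, SLC4A5 among them, cover 14.1% of its exonic bases.

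MTHFD2L (chromosome 4, 74114174 to 74303099, plus strand), the paralog of MTHFD2, was the least abundant member. It was at 6.92, 5.92 and 5.26 CPM in sgCtrl and at 6.68, 6.57 and 6.27 CPM in sgCOX4I1, from counts of 107 to 196 a library. The groups overlapped, with a log2 fold change of 0.11 and a wide 95% interval of -0.24 to 0.46 (adjusted p = 0.782, edgeR).

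MTHFD1L (chromosome 6, 150865679 to 151101887, plus strand), the mitochondrial enzyme that releases formate, was at 145, 151 and 151 CPM in sgCtrl and at 161, 173 and 177 CPM in sgCOX4I1. The groups did not overlap, and MTHFD1L had a log2 fold change of 0.19 (SE 0.07, 95% interval 0.04 to 0.35, adjusted p = 0.177, edgeR).

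ALDH1L2 (chromosome 12, 105019784 to 105107643, minus strand), which oxidizes the formyl group on folate to carbon dioxide in mitochondria, was at 81.6, 69.2 and 63.4 CPM in sgCtrl and at 98.7, 83.6 and 90.5 CPM in sgCOX4I1. All 3 sgCOX4I1 libraries were above all 3 sgCtrl libraries, at means of 90.9 ± 7.54 and 71.4 ± 9.31 CPM. The log2 fold change was 0.35 (SE 0.10, 95% interval 0.14 to 0.56, adjusted p = 0.0827, edgeR). It was called by DESeq2 (adjusted p = 0.0354), without the filter on low counts (adjusted p = 0.0221) and without sgCtrl #1 (0.46, adjusted p = 0.00936), and without sgCOX4I1 #2 it was 0.41 with an adjusted p of 0.144. ALDH1L1, its cytosolic counterpart, had 0 counts in every library, which allows at most 0.0972 to 0.174 CPM, so no ratio of that pair was computed.

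Within a group, the order of the libraries was alike for most members. Within sgCtrl, the #1 library was the highest of its group for 9 of 10 members (38.4% of all genes) and the lowest for MTHFD1L, and within sgCOX4I1 the #1 library was the highest for 8 of 10 (35.8% of all genes) and again the lowest for MTHFD1L. As a description over the 6 libraries, which share the group difference, Pearson's r of log2 CPM over the 45 pairs of members ran from -0.29 (SHMT1 with MTHFD1L) to 0.96 (MTHFD1 with ALDH1L2), with a median of 0.71. It was 0.95 between PSAT1 and MTHFD2, the members that were called. In 13 pairs it was under 0.5, among them SHMT1 with PSAT1 (0.108) and MTHFD1L with PHGDH (-0.008).

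The ratio of mitochondrial to cytosolic counts within a library does not depend on library scaling. For MTHFD2 over MTHFD1 it was 1.52, 1.53 and 1.66 in sgCtrl #1, #2 and #3 and 1.86, 1.93 and 1.76 in sgCOX4I1 #1, #2 and #3. The groups did not overlap, and the log2 ratio differed by 0.24 (SE 0.06, exact permutation p = 0.1, two-sided and the lowest value possible with 3 against 3, and 0.25 adjusted over the 5 ratios). MTHFD2 over its paralog MTHFD2L was 28.5, 29.7 and 36.8 in sgCtrl and 39.0, 38.5 and 39.2 in sgCOX4I1, again without overlap (difference 0.31, SE 0.11, exact p = 0.1, adjusted 0.25).

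SHMT2 over SHMT1 was 9.73, 9.51 and 9.60 in sgCtrl and 11.4, 10.9 and 9.59 in sgCOX4I1. The sgCOX4I1 #3 library fell within the control range, and the difference in the log2 ratio was 0.14 (SE 0.08, exact permutation p = 0.3, adjusted 0.5). It was 0.0885 without sgCOX4I1 #1 and 0.214 without sgCOX4I1 #3. MTHFD1L over MTHFD1 overlapped between groups, with a difference of 0.0045 (SE 0.10, exact permutation p = 1) whose sign turned without sgCtrl #1, sgCOX4I1 #2 or sgCOX4I1 #3. MTHFD2L over MTHFD1 overlapped too, with a difference of -0.08 (SE 0.09, exact permutation p = 0.4, adjusted 0.5), and it ran from -0.148 without sgCtrl #3 to -0.03 without sgCtrl #1. With this group size none of the 5 ratios could pass 0.05.

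**Figure D3:**
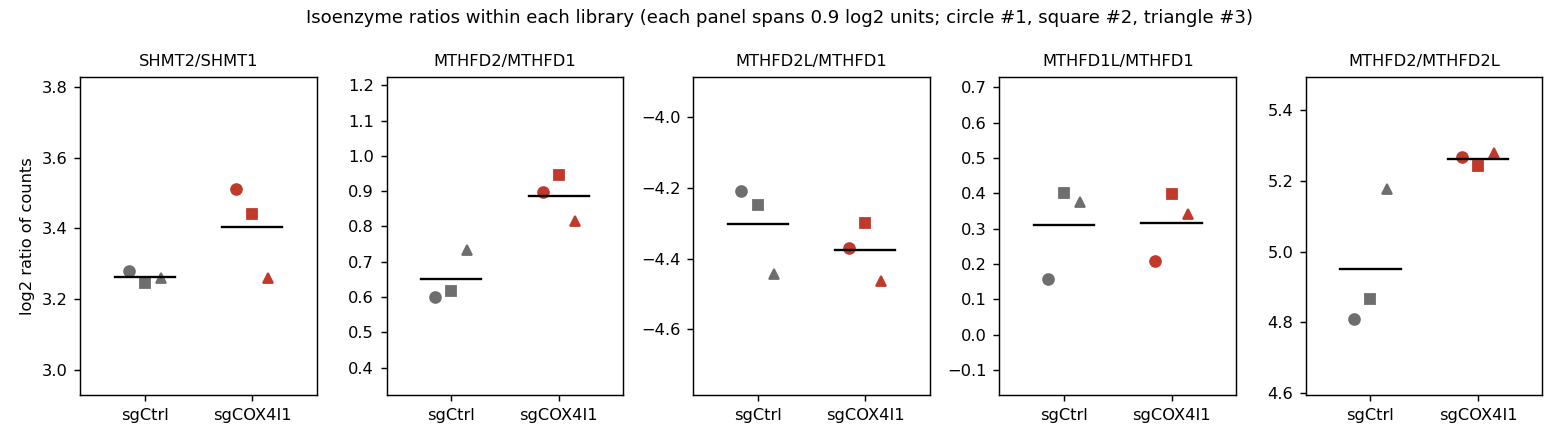
Log2 ratio of counts between enzymes of the same reaction steps in each library (1 point a library, bar at the group mean), for 5 pairs, with axes of equal span. The sgCOX4I1 points lie above all sgCtrl points for MTHFD2/MTHFD1 and MTHFD2/MTHFD2L and overlap them for the other 3 pairs.

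Levels were compared between genes per kilobase of exon (CPM divided by length). With the canonical transcript of each gene, SHMT2 was highest in sgCtrl at 198 ± 17.9, followed by PHGDH at 92.0 ± 9.67. PSAT1 (44.2 ± 5.68), MTHFD1L (43.2 ± 1.02), MTHFD2 (42.9 ± 2.62) and MTHFD1 (38.1 ± 2.66) came next, and each overlapped its neighbour in this order. PSPH (19.7 ± 1.80) and SHMT1 (17.6 ± 1.42) overlapped as well, and ALDH1L2 (9.61 ± 1.25) and MTHFD2L (2.56 ± 0.36) were each apart from the member above them (SD, n = 3). In sgCOX4I1, PSAT1 was at 72.8 ± 9.80 and MTHFD2 at 57.5 ± 1.72 on this scale.

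The order depended on the length used. Over the union of all annotated exons, SHMT2 stayed first (93.0) and MTHFD2L last (0.614), but PHGDH moved from rank 2 to 4 (18.7), and MTHFD1, whose annotated exons add up to 17.357 kilobases, moved from 6 to 8 (6.93). Over the longest transcript SHMT2 was at 125 and PHGDH at 54.0.

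**Figure D4:**
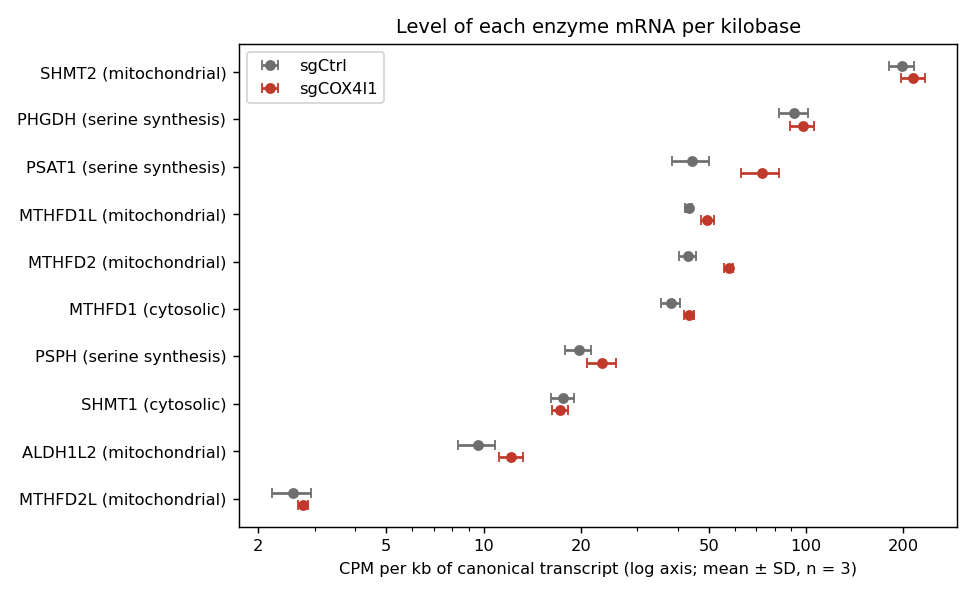
Level of each member per kilobase of its canonical transcript (CPM per kilobase, log axis) in sgCtrl and sgCOX4I1, mean with SD of 3 libraries. SHMT2 is highest and MTHFD2L lowest, and PSAT1, MTHFD1L, MTHFD2 and MTHFD1 lie close together in sgCtrl.

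Serine and folate metabolism beyond these enzymes was followed in 51 other genes. Of the 51 genes in 6 lists, 40 had enough counts to be tested, 1 was called (against 2.08% of all genes), and 16 had an unadjusted p under 0.05 (against 17.3%). The log2 fold change was above 0 for 29 and below 0 for 11, with a median of 0.09. The groups did not overlap in 11 of the 40 with sgCOX4I1 higher, against 11.2% of all genes, and in 3 with sgCOX4I1 lower, against 10.4%.

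The called gene was SLC6A9, the glycine transporter GLYT1, at 0.926, 1.14 and 0.688 CPM in sgCtrl and 4.10, 2.73 and 2.56 CPM in sgCOX4I1. It rose 3.4-fold from a low level (14 to 21 counts a library in sgCtrl, 47 to 92 in sgCOX4I1), with a log2 fold change of 1.77 (SE 0.31, adjusted p = 0.0125, edgeR). The call was lost without sgCtrl #2 or without sgCOX4I1 #2. Its list, the serine and glycine transporters with the serine-degrading enzymes, had 8 of 9 tested genes above 0 and a median of 0.31, and 5 of the 9 did not overlap between groups, all higher in sgCOX4I1 (11.2% of all genes). SDS, the serine dehydratase, had the next largest log2 fold change of the list (0.80, adjusted p = 0.15, edgeR), and its groups overlapped. The transporter gene SLC38A1 had the next smallest p (log2 fold change 0.38, adjusted p = 0.0512, edgeR). Its groups did not overlap, and DESeq2 and limma-voom called it.

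No gene was called in the other 5 lists by edgeR. Among the folate and serine carriers (5 tested, 3 with an unadjusted p under 0.05, median 0.14), the mitochondrial folate carrier SLC25A32 had the smallest p, at 50.6, 45 and 45.7 CPM in sgCtrl and 60.6, 56.6 and 58.9 CPM in sgCOX4I1. Its groups did not overlap, the log2 fold change was 0.32 (SE 0.08, adjusted p = 0.0588, edgeR), and DESeq2 called it. The folate receptors FOLR1, FOLR2 and FOLR3 and the carrier SLC46A1 had too few counts to test.

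In the glycine cleavage list (4 tested, 2 with an unadjusted p under 0.05, median -0.11), GLDC and AMT, both needed by that system, had too few counts, with at most 1 count of GLDC in a library. DLD, the dehydrogenase subunit that it shares with pyruvate dehydrogenase, averaged 95.4 ± 7.30 CPM in sgCtrl and 115 ± 3.24 CPM in sgCOX4I1 (log2 fold change 0.27, adjusted p = 0.0911, edgeR).

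In the methionine cycle and transsulfuration list, 7 of 8 tested genes were above 0 with a median of 0.10, and 1 had an unadjusted p under 0.05. That gene was CTH, which makes cysteine from cystathionine, at 2.67, 3.04 and 2.11 CPM in sgCtrl and 5.92, 3.66 and 3.93 CPM in sgCOX4I1 (log2 fold change 0.79, SE 0.25, adjusted p = 0.114, edgeR). Its groups did not overlap.

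Among the enzymes that accept 1-carbon units or lead up to them in purine and thymidylate synthesis, 6 of 7 were above 0 with a median of 0.07 and 2 had an unadjusted p under 0.05. PPAT, the first enzyme of purine synthesis, averaged 37.2 ± 3.16 and 43.9 ± 4.33 CPM, and its groups overlapped (log2 fold change 0.24, adjusted p = 0.218, edgeR).

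Folate reduction and polyglutamation was the list with most genes below 0, 5 of 7 tested, with a median of -0.13 and 2 unadjusted p under 0.05. FTCD, an enzyme of histidine breakdown that passes a formimino group to folate, was at 2.62, 3.75 and 3.83 CPM in sgCtrl and 1.34, 2.38 and 1.6 CPM in sgCOX4I1. The groups did not overlap, and the log2 fold change was -0.97 (SE 0.28, adjusted p = 0.088, edgeR).

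**Figure D5:**
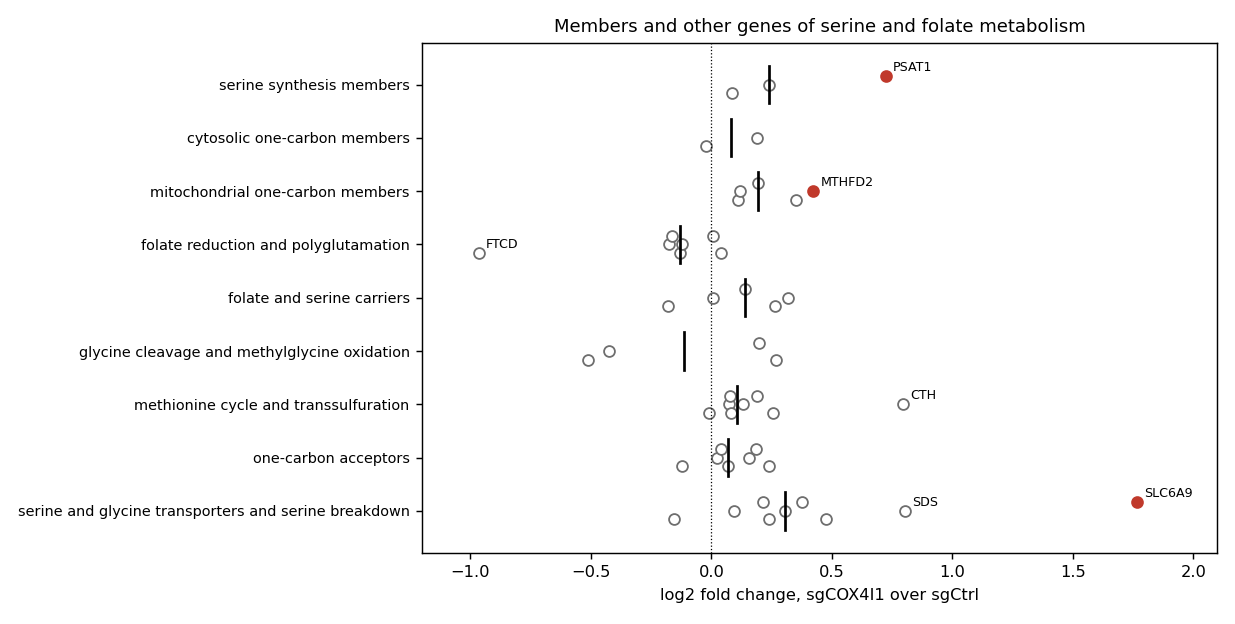
Log2 fold change (sgCOX4I1 over sgCtrl, edgeR) of the tested genes of the 3 member groups and the 6 other lists of serine and folate metabolism, 1 point a gene, filled where called, with the list's median as a bar. PSAT1, MTHFD2 and SLC6A9 are the called genes, and the medians run from -0.13 for folate reduction to 0.31 for the transporters.

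Among 11315 genes that averaged 1 CPM or more, those most like PSAT1 over the 6 libraries by Pearson's r of log2 CPM were B4GALT2 (0.9970), GAREM1 (0.9951) and USP1 (0.9946). USP1, a deubiquitinase of DNA repair, rose by 0.40 on the log2 scale (adjusted p = 0.0234, edgeR). B4GALT2 (0.24, adjusted p = 0.134) and GAREM1 (0.33, adjusted p = 0.248) were not called. The genes most like MTHFD2 were GPR160 (0.9979), PIR (0.9968) and HSPA9 (0.9930). PIR rose by 1.45 (adjusted p = 0.011), and neither GPR160 (0.38, adjusted p = 0.0569) nor HSPA9, the mitochondrial chaperone mortalin (0.27, adjusted p = 0.0756), was called by edgeR. These values are a description over 6 libraries that share the difference between the groups.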

How the data were processed

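RNA-seq counts of 6 Molm13-Cas9 libraries, 3 sgCtrl and 3 sgCOX4I1, were used. The authors deposited raw counts, whole numbers, for 19845 gene symbols. The methods describe Trimmomatic, Bowtie2 and RSEM, the submitters' processing notes name bcl2fastq 2.20.0.422, STAR 2.6.0a and GRCh38, and the column names point to STAR, marked duplicates and HTSeq. The strand setting and the treatment of duplicates are not given in the sources used here. Columns were matched to samples by letter and guide number.

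Counts were tested with edgeR 4.0.16 in R 4.3.3 (TMM, its filter on low counts, quasi-likelihood, no covariate), adjusted by Benjamini-Hochberg over 11861 genes and called at an adjusted p under 0.05. Reported CPM are TMM-scaled. Isoenzyme ratios used log2 counts with a prior count of 2 and two-sided exact permutation tests. Lengths and positions come from GENCODE 44 on GRCh38, where 18437 symbols matched. The methods' 2-fold threshold was counted beside the call. The test was checked on simulated counts before use.

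Replicates are cultures with different guides, and nothing says whether they were grown independently, so p-values measure the spread between these libraries. Pairs of replicates differed by a chi-square per degree of freedom of 10.6 to 26.6, more than sampling noise. A gene with 0 counts is limited to 0.0972 to 0.174 CPM (3 counts a library, counting error only). The members and gene lists were chosen with earlier results of these data known, and the promoter motifs with the sequences in view. Named genes are the 10 members, COX4I1, every called gene of a list or else the one with the smallest p, and the 3 genes most like each called member. The myeloid markers, SDS and SLC38A1 were named, and ALDH1L1 and untested list genes mentioned, after their values were seen. Alternatives were DESeq2 1.42.0, limma-voom (limma 3.58.1), no TMM, no filter, at least 10 counts in every library, the replicate number as a block, thinned counts, a prior count of 0.5, each library left out, and, for levels, other transcript lengths, of which the canonical transcript was added after the lengths had been seen.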

Additional observations from a re-analysis of the deposited data

How the results depend on the processing

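The members called numbered 2, and 2 to 3 with DESeq2, limma-voom, no TMM, no filter, at least 10 counts in every library or thinned counts. Leaving out 1 library gave 0 (without sgCtrl #2) to 3 members, and 1 without sgCOX4I1 #2. Over all genes 247 were called, against 456 with DESeq2, 537 without a filter, and 24 (without sgCtrl #2) to 561 (without sgCtrl #1) with 1 library left out, with 51 without sgCOX4I1 #2 and 89 without sgCOX4I1 #3. In the other pathway genes 1 was called, against 3 with DESeq2, 2 with limma-voom, 3 without TMM, 6 without a filter, 2 with at least 10 counts, and 0 to 6 with 1 library left out. The SHMT1 log2 fold change ran from -0.0661 to 0.0439 with 1 library left out and was above 0 without sgCtrl #1 (0.0439) or sgCOX4I1 #2 (0.0236). The MTHFD1L/MTHFD1 difference ran from -0.0719 to 0.0585 and was below 0 without sgCtrl #1 (-0.0719), sgCOX4I1 #2 (-0.0369) or sgCOX4I1 #3 (-0.00801). The other 4 ratio differences kept their sign in every alternative run, over 0.0885 to 0.214 for SHMT2/SHMT1 and -0.148 to -0.03 for MTHFD2L/MTHFD1. The cause was not tested.

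The replicate number matched the libraries in part. Deviations from the group mean correlated at 0.382 between the #1 libraries and 0.294 between the #3 libraries, but at -0.024 between the #2 libraries. Differently numbered libraries ran from -0.384 to 0.130, the highest being sgCOX4I1 #2 with sgCtrl #3. What the number stands for beyond the guide is not given in the sources used here. With the replicate block 6 members (PSAT1, PSPH, MTHFD1, MTHFD1L, MTHFD2 and ALDH1L2), 12 other pathway genes and 1408 genes in all were called. Paired ratios cannot go below an exact p of 0.25.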
